A study of Homo sapiens with 6 samples.

Results

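The genes described here carry peptides to the cell surface on MHC class I molecules: the heavy chains HLA-B, HLA-C, HLA-E and HLA-F, their light chain B2M, the peptide transporter subunits TAP1 and TAP2, the loading factor TAPBP and the peptide-trimming enzyme ERAP1. They were chosen by name, and every probe annotated to one of these 9, of 18662 genes with a named probe, was taken, which gave 16 probes of the 48802 on the array. All 9 genes had at least 1 probe with a mean log2 signal of at least 7, the minimum set for testing, and 12 of the 16 probes were tested among 16752 in all. The data are from LNCaP, an androgen-sensitive prostate cancer line from a lymph node metastasis, harvested 24 h after lipid transfection of a synthetic microRNA precursor at 30 nM, either that of miR-331-3p or a negative control, miR-NC. The same line, reagent, dose and time apply to both groups, and each group has 3 Illumina Human-6 v3 arrays, lettered A, B and C. Nothing in the labels says that the arrays came from separate cultures, so the p-values speak only of array-to-array spread, which may be technical.

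MHC class I molecules display short peptides, most of them cut from cytosolic proteins by the proteasome, to CD8 T cells and to natural killer cells. TAP1 and TAP2 form the pump that brings the peptides into the endoplasmic reticulum, ERAP1 trims them there, and tapasin, the product of TAPBP, holds an empty heavy chain and its light chain B2M against the pump until a peptide fits. Interferons induce much of this machinery through interferon response elements in its promoters, and NF-kappaB sites there answer inflammatory signals. Many prostate tumors and prostate cancer lines, LNCaP among them, show little class I on their surface. Of the 9 genes, 7 lie on chromosome 6 in the MHC, B2M lies on chromosome 15 and ERAP1 on chromosome 5.

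The RNA introduced into one group matures to the microRNA printed here from RefSeq (GRCh38.p14, chr12:95308480-95308500, plus strand), with its seed, bases 2 to 8, in capitals, since it is the agent by which the groups differ.
miR-331-3p: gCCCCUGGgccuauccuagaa
It is the only mature human microRNA in that table with this seed.

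Signals are the deposited log2 values, and every difference below is the mean of the 3 arrays labelled miR-331-3p minus that of the 3 labelled miR-NC. These labels give a direction opposite to the study's, which describes genes such as RRBP1, RALA and ERBB2 as lowered by miR-331-3p. For RALA and ERBB2 the study reports a decrease on the array and also by RT-qPCR, and for RALA lower activity of a 3′-UTR reporter. The miR-331-3p arrays had RRBP1 at 10.69, 10.79 and 10.76, against 8.71, 8.76 and 8.75 in the miR-NC arrays. RALA, and ERBB2 at its brightest probe, were also higher under the labels, by 0.96 and 1.11. The other ERBB2 probes, both under the minimum and not tested, differed by -0.11 and -0.09. Whether the labels were swapped was not tested. If they were, every sign given here would turn, so the groups are called miR-331-3p arrays and miR-NC arrays after their labels and nothing more. The values are bulk signals, in which more RNA per cell and more cells of a kind cannot be told apart. The prostate markers KRT8, KRT18, HOXB13, FOLH1, KLK2, KLK3 and TMPRSS2 all passed the minimum, at mean log2 signals of 8.27 or more for the brightest probe of each. The leukocyte markers PTPRC, CD3E and LYZ, and HLA-DRA, HLA-DRB1 and CIITA of class II presentation, lay under it at every probe. Other genes of these lists did pass it, with mean log2 signals of 8.03 for CD68 and 7.01 for CD14 among the leukocyte markers, and of 9.06 for HLA-DMA, 9.08 for HLA-DMB and 7.04 for CD74 among the class II genes.

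TAP1 was the only one of these genes to pass the test: it rose 1.34 fold in the miR-331-3p arrays, and no member passed in the other direction. Among the 12 tested probes 1 was higher and 0 were lower at an adjusted p of 0.05 by limma, with 3 at an unadjusted p under 0.05 and 0 by the methods' t-test after adjustment. Over all 16752 probes tested, 4.30% were higher and 7.96% passed in either direction. The count for the members is 1 probe, too few to read against that background. The median difference of the 12 probes was 0.045, against -0.003 for all probes tested, and 9 of the 12 differences were positive. By the brightest probe of each gene, the 9 genes had a median of 0.14.

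**Figure D1:**
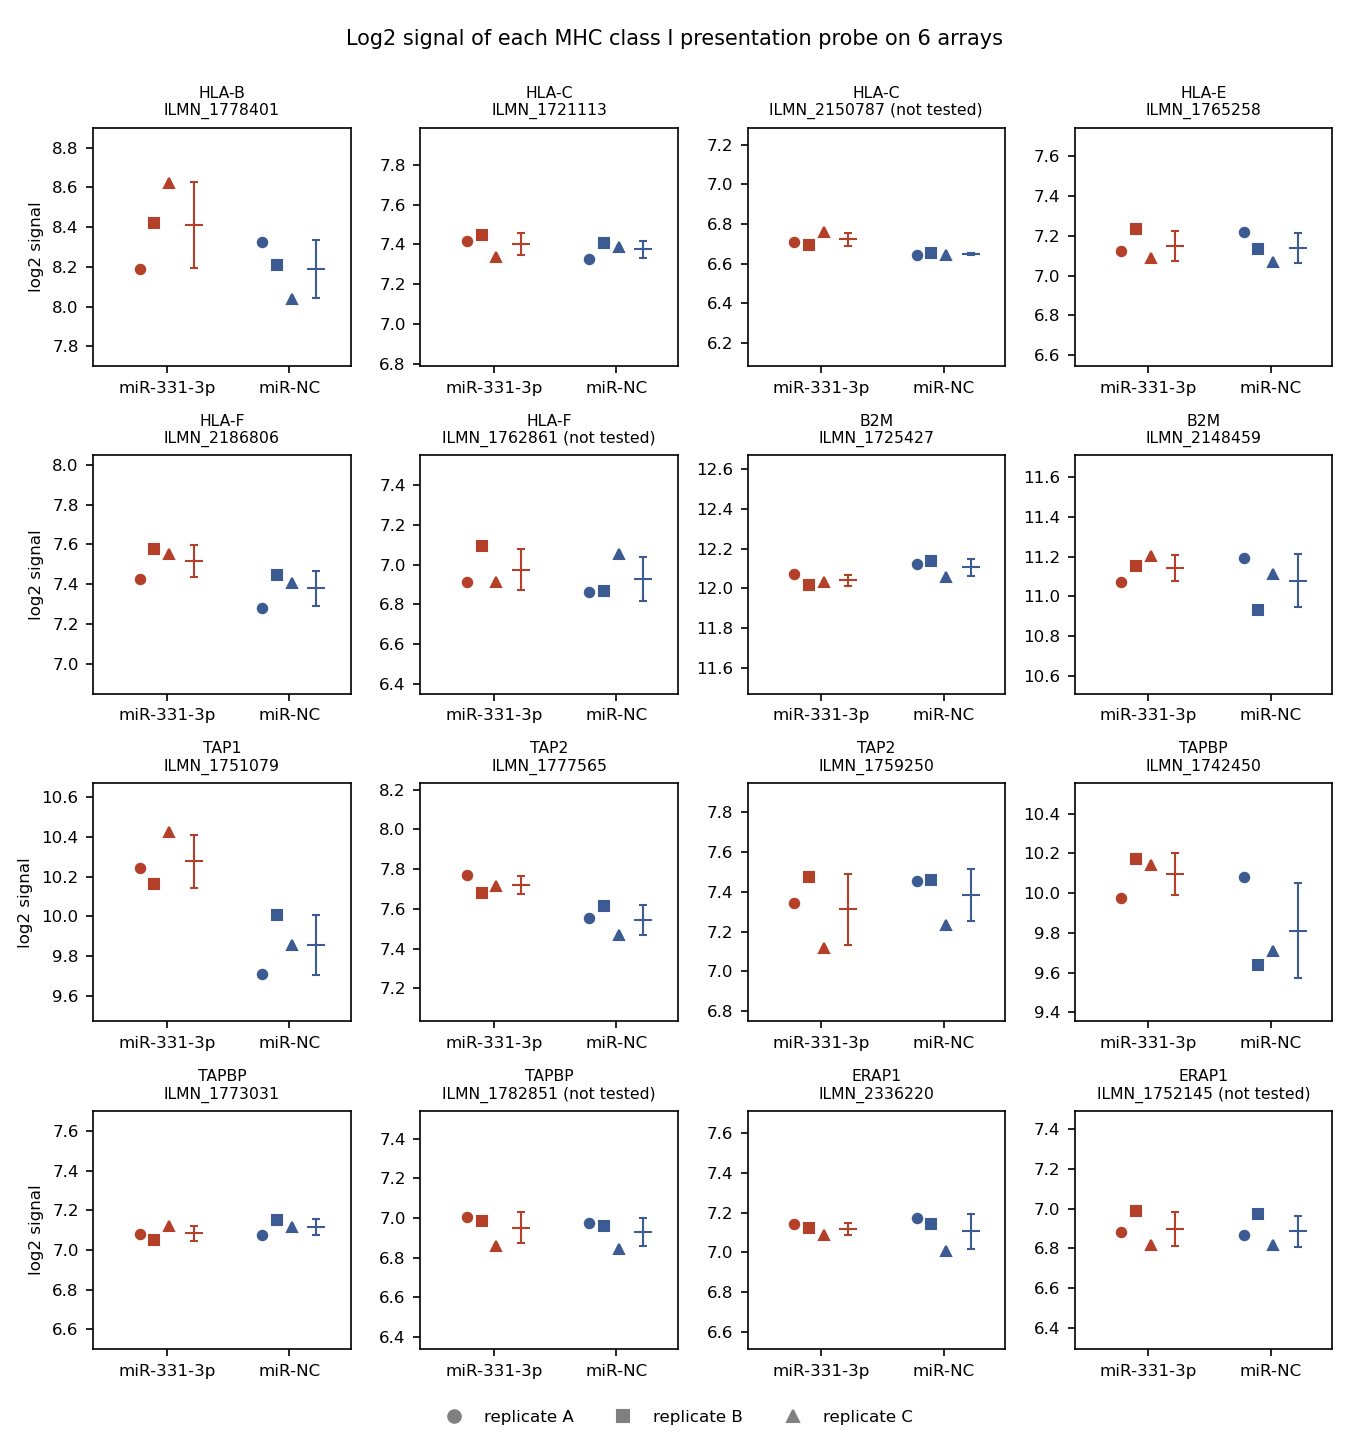
Log2 signal (vertical axes, each spanning the same range of log2 units) of the 16 probes in the miR-331-3p arrays (red) and the miR-NC arrays (blue), with each array as a point and the mean with its SD beside the points (n = 3 each). The groups separate at TAP1, where the lowest miR-331-3p array is at 10.16 and the highest miR-NC array at 10.01. They also separate at the brighter TAP2 probe (ILMN_1777565) and at the untested HLA-C probe (ILMN_2150787). They overlap at HLA-E, B2M and ERAP1, at the brighter B2M probe only through replicate A of miR-331-3p.

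TAP1, the transporter subunit, read by a single probe (ILMN_1751079), had log2 signals of 10.24, 10.16 and 10.42 in the miR-331-3p arrays, against 9.71, 10.01 and 9.85 in the miR-NC arrays. All 3 miR-331-3p arrays lay above all 3 miR-NC arrays (two-sided p = 0.1 by an exact permutation test, which cannot go lower with 3 arrays a group). The means were 10.28 ± 0.135 in the miR-331-3p arrays and 9.86 ± 0.149 in the miR-NC arrays (SD, n = 3 each), a difference of 0.42 (95% interval 0.21 to 0.63, adjusted p = 0.023 by limma), or 1.34 fold with an interval of 1.15 to 1.55. The methods' t-test did not call it (adjusted p = 0.20), nor did limma without miR-NC replicate A (0.35, adjusted p = 0.093) or without miR-NC replicate C (0.42, adjusted p = 0.086). Without a minimum signal, adjusted p was 0.0499.

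TAP2, the partner subunit in the same pump, did not pass at either of its probes. The brighter one (ILMN_1777565) had 7.77, 7.68 and 7.72 in the miR-331-3p arrays and 7.55, 7.62 and 7.47 in the miR-NC arrays. These groups did not overlap, with a difference of 0.18 (interval 0.01 to 0.34, adjusted p = 0.19). At the other probe (ILMN_1759250), annotated to another transcript of the gene, the miR-331-3p arrays gave 7.34, 7.47 and 7.12 and the miR-NC arrays 7.46, 7.46 and 7.23. Here the groups overlapped and the difference was -0.07 (interval -0.30 to 0.15, adjusted p = 0.76), so the sign at TAP2 depended on the probe. TAP1 and TAP2 gave the only 2 tested probes of the members whose groups of arrays did not overlap, against 26.6% of all probes tested.

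TAPBP, which encodes tapasin, had the second largest difference. Its brightest probe (ILMN_1742450) read 9.98, 10.17 and 10.14 in the miR-331-3p arrays, against 10.08, 9.64 and 9.71 in the miR-NC arrays. Replicate A of miR-NC stood with the miR-331-3p arrays, above the lowest of them, and the other miR-NC arrays lay below all of them. The difference was 0.29 (interval 0.04 to 0.54, adjusted p = 0.16), and without miR-NC replicate A it was 0.42 and passed, at adjusted p = 0.032. The same array had the lowest TAP1 signal of the 6. Another TAPBP probe (ILMN_1773031), near the minimum, read 7.08, 7.05 and 7.12 in the miR-331-3p arrays and 7.08, 7.15 and 7.12 in the miR-NC arrays, a difference of -0.03 (interval -0.19 to 0.12). The dimmest (ILMN_1782851) was not tested, at a mean of 6.94, and differed by 0.02.

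ERAP1, the aminopeptidase that trims peptides in the endoplasmic reticulum, was dim. Its tested probe (ILMN_2336220) had 7.15, 7.12 and 7.09 in the miR-331-3p arrays and 7.17, 7.14 and 7.01 in the miR-NC arrays. The miR-331-3p arrays lay within the span of the miR-NC arrays, with a difference of 0.01 (interval -0.15 to 0.18, adjusted p = 0.96). Its other probe (ILMN_1752145) lay under the minimum, at a mean of 6.89, with values from 6.82 to 6.99 in the miR-331-3p arrays and from 6.82 to 6.97 in the miR-NC arrays.

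B2M, the light chain that every class I heavy chain needs to reach the surface, was bright at both probes and passed at neither. The brighter probe (ILMN_1725427) had 12.07, 12.02 and 12.03 in the miR-331-3p arrays, against 12.12, 12.14 and 12.06 in the miR-NC arrays. Only replicate A of miR-331-3p lay above the lowest miR-NC array, and the difference was -0.07 (interval -0.22 to 0.09, adjusted p = 0.66). The other probe (ILMN_2148459) had 11.07, 11.15 and 11.20 in the miR-331-3p arrays, against 11.19, 10.93 and 11.11 in the miR-NC arrays. It differed by 0.06 (interval -0.12 to 0.25, adjusted p = 0.74), the groups overlapped, and the probes of the gene differed in sign. The B2M intervals reach no further than 1.19 fold upward. Among 13508 other named probes, those of NF2, ARSD and RNF169 followed the brighter B2M probe most closely over the 6 arrays, with Pearson r of 0.993, 0.991 and 0.990. These are the highest of many correlations over few arrays, given as a description.

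HLA-B, the heavy chain of a classical class I molecule, read by 1 probe (ILMN_1778401), had 8.19, 8.42 and 8.62 in the miR-331-3p arrays, against 8.33, 8.21 and 8.04 in the miR-NC arrays. Replicate A of miR-331-3p lay below the highest miR-NC array, and replicates B and C lay above all of them. The means of 8.41 ± 0.216 in the miR-331-3p arrays and 8.19 ± 0.147 in the miR-NC arrays (SD, n = 3 each) differed by 0.22 (interval -0.03 to 0.47, adjusted p = 0.29). Without each array in turn the difference ran from 0.12 to 0.33, the highest without miR-331-3p replicate A, and did not pass in any of these fits. HLA-B thus had the widest spread among the heavy chains, and an increase of up to 1.38 fold lies within its interval.

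HLA-C, the other classical heavy chain of the list, showed less. Its tested probe (ILMN_1721113) had 7.42, 7.45 and 7.34 in the miR-331-3p arrays and 7.33, 7.41 and 7.39 in the miR-NC arrays, overlapping groups with a difference of 0.03 (interval -0.13 to 0.18, adjusted p = 0.88). Its second probe (ILMN_2150787) lay under the minimum and was not tested, at 6.71, 6.70 and 6.76 in the miR-331-3p arrays and 6.64, 6.65 and 6.65 in the miR-NC arrays. The groups there did not overlap, and the difference was 0.07 at signals near the bottom of the scale (adjusted p = 0.61 when all probes were tested).

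HLA-E, which presents leader peptides of other class I chains to natural killer cell receptors, had 7.13, 7.24 and 7.09 in the miR-331-3p arrays and 7.22, 7.13 and 7.07 in the miR-NC arrays (ILMN_1765258). The groups overlapped, with a difference of 0.01 (interval -0.16 to 0.18, adjusted p = 0.96). HLA-F, a nonclassical heavy chain, had 7.43, 7.58 and 7.55 in the miR-331-3p arrays and 7.28, 7.45 and 7.41 in the miR-NC arrays at its tested probe (ILMN_2186806). Replicates B and C of miR-331-3p lay above all miR-NC arrays, replicate A did not, and the difference was 0.14 (interval -0.03 to 0.32, adjusted p = 0.34). Its other probe (ILMN_1762861) averaged 6.95, was not tested and differed by 0.05. Heavy chain genes share long stretches of sequence, and whether one probe also reads transcripts of a related gene was not tested, so the values of single HLA genes are uncertain to that extent.

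**Figure D2:**
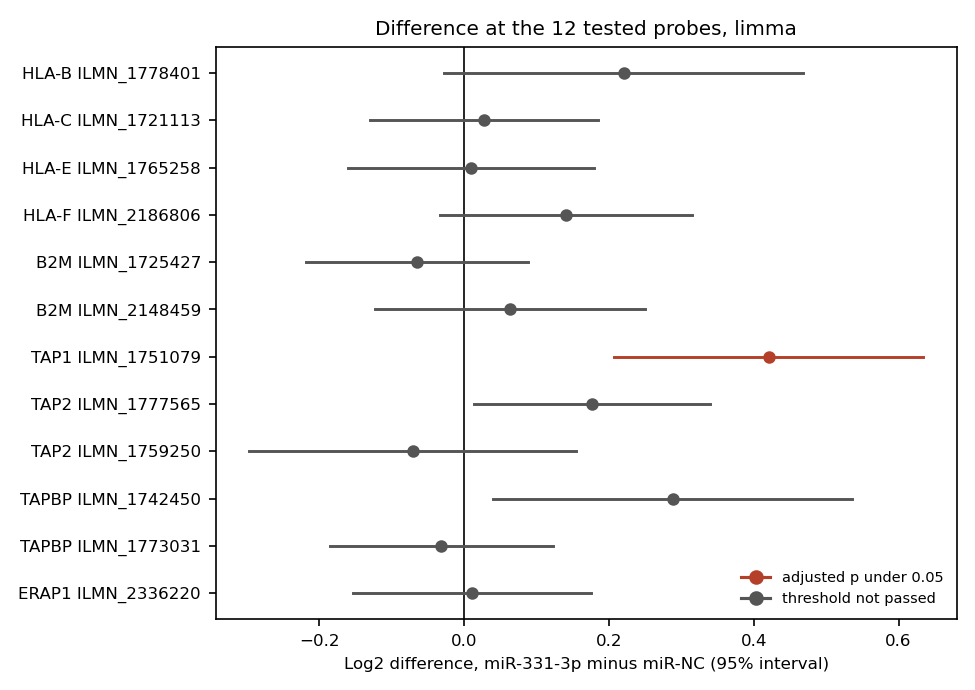
Log2 difference, arrays labelled miR-331-3p minus those labelled miR-NC (horizontal axis), at the 12 tested probes with 95% intervals from limma (n = 3 each). TAP1 is at 0.42 with an interval of 0.21 to 0.63, and the other intervals end at 0.54 or below.

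The half-widths of these intervals ran from 0.15 to 0.25 on the log2 scale. Of the 11 probes that did not pass, the highest upper bound was that of TAPBP, 0.54 or 1.45 fold, and the lowest lower bound that of TAP2, -0.30. These are the extremes of single probes: 1 of the 11 intervals reached 0.5, and those of B2M, HLA-C, HLA-E and ERAP1 ended at 0.25 or below. A failure to pass the test leaves room for changes within each probe's own interval and does not show that the gene stayed level.

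TAP1, TAPBP and B2M are shown with the 250 bases before an annotated start site of each. Promoters of this gene group hold the sites through which interferon and inflammatory signals act. HLA-B is shown as a heavy chain without a match to the letters searched. Capitals mark matches to GAAANNGAA, the core of interferon response elements, or to GGGACTTTC, the letters of an NF-kappaB site, searched on both strands and with overlapping matches kept. All sequences are from RefSeq, GRCh38.p14, written 5′ to 3′ on the strand of the gene.
TAP1 (chr6:32853705-32853954, minus strand): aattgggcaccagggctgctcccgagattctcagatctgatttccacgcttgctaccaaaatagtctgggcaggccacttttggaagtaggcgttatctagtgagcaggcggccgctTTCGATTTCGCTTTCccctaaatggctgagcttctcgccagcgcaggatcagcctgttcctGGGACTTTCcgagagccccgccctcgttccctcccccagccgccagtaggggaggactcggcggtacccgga
TAPBP (chr6:33314079-33314328, minus strand): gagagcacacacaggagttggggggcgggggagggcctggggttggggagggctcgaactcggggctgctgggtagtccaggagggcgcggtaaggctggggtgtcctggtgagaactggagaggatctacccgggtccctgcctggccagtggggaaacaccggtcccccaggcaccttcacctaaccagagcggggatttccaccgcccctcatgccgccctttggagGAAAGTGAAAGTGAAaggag
B2M (chr15:44711267-44711516, plus strand): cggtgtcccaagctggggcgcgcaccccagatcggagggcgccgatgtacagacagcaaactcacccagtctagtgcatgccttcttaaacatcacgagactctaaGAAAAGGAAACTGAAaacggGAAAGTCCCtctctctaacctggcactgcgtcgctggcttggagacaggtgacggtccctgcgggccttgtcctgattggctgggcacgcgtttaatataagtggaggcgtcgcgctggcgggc
HLA-B (chr6:31357180-31357429, minus strand): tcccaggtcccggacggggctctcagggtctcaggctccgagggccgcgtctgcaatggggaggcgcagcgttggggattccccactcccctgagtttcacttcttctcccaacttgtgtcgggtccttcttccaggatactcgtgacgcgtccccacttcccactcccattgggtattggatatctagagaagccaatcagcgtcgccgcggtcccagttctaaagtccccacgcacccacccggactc
In windows of 300 bases, of which 50 follow the start site, GAAANNGAA was present in 6 of the 10 windows of the members (those of TAP1, TAP2, TAPBP, B2M, HLA-F and ERAP1, the last one after the start site), in 36 of 62 windows of interferon-stimulated genes and in 8.11% of all 35116 windows. GGGACTTTC was present in the TAP1 window shown, in the B2M window and in 0.387% of all windows. The other annotated window of TAP1 and the other window of ERAP1 held neither motif. TAP1, in the window shown, and B2M thus hold both motifs. TAP1 had a difference of 0.42, and B2M had -0.07 and 0.06 at its probes. Such matches are letters in a window and say nothing of binding in these cells. Other spellings of these sites were not searched, so a window without a match, as at HLA-B, may still hold such a site. No entry for HLA-E was matched.

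Interferon-stimulated genes were set beside the members because the question was whether a shift of interferon type extends to antigen presentation. Of 57 listed genes, 42 were tested by their brightest probe, 12 were higher in the miR-331-3p arrays and 0 were lower, with a median difference of 0.19. The shares over all probes tested were 4.30% higher and 7.96% in either direction, with a median of -0.003. The list was drawn up with results of these data known, so its direction is not independent evidence. CXCL10, CCL5, IFIT1, IFI27 and IFI6 are in the study's own list of genes lowered by miR-331-3p on these samples, opposite to the direction under the labels. By the methods' t-test 3 of the interferon-stimulated genes passed. With each array left out 8 to 14 were higher by limma, the count being 8 without miR-NC replicate A, B or C.

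The largest of these differences was at CXCL10. This gene, which encodes a chemokine for T cells, had 9.35, 9.20 and 9.10 in the miR-331-3p arrays, against 8.19, 8.28 and 8.35 in the miR-NC arrays, a difference of 0.94 (standard error 0.085, adjusted p = 8.9e-05 by limma). IFIT1, which binds viral RNA, differed by 0.69, CCL5, another chemokine, by 0.67, and IFI27 by 0.66. IFI6 followed with 0.61 and UBE2L6, which conjugates the ubiquitin-like ISG15, with 0.53. Each of these 6 had all miR-331-3p arrays above all miR-NC arrays, and the groups did not overlap at 26.6% of all probes tested. They were named for the largest differences among the genes that passed, so estimates above the 0.42 of TAP1 follow largely from that choice. Of the other genes that passed, IFIT3, ISG15 and IFI44 had 0.50, 0.48 and 0.43, and OASL, SAMD9 and IFIT2 had 0.39, 0.36 and 0.32. No contrast with TAP1 was tested. Other probes of the 6 genes did not always follow: a second IFIT1 probe, near the minimum, differed by -0.01.

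**Figure D3:**
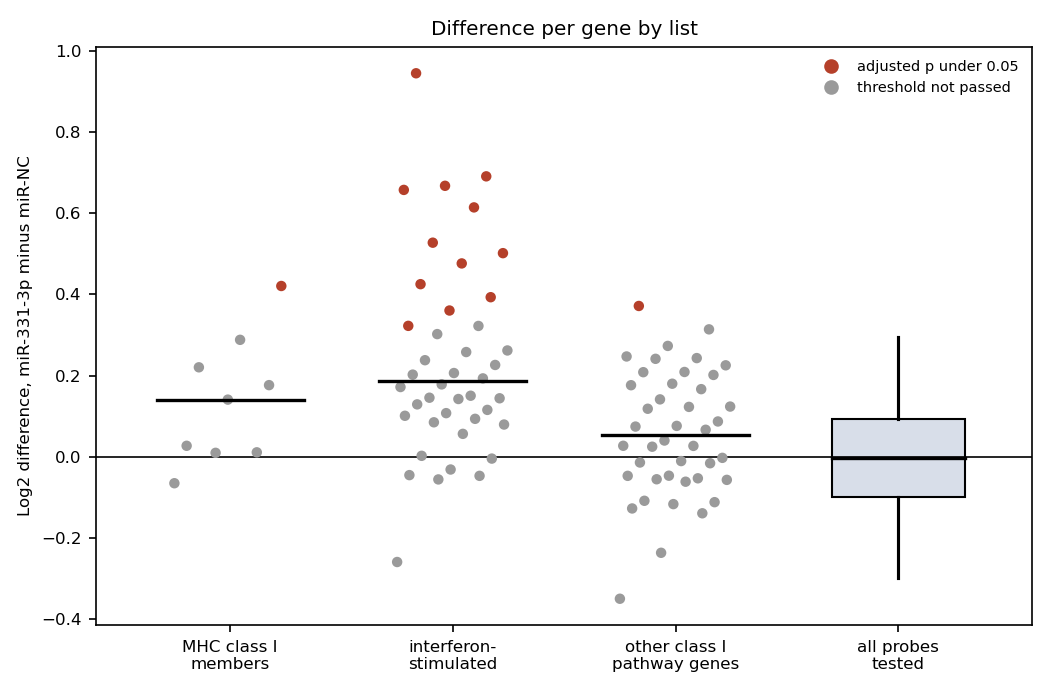
Log2 difference, arrays labelled miR-331-3p minus those labelled miR-NC (vertical axis), for each tested gene of 3 lists by its brightest probe, with the list's median as a bar. The box spans the 25th to the 75th percentile of all probes tested, -0.099 to 0.092, its whiskers the 5th to the 95th, and red points passed an adjusted p of 0.05, as 1 of 9 members and 12 of 42 interferon-stimulated genes did. The share of all probes tested that passed was 7.96%, with 4.30% higher.

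Other genes of the class I pathway, from proteasome subunits to the transcription factors of class I promoters, mostly did not pass the test. Of 56 listed, 42 were tested by their brightest probe, 8 lay under the minimum and 6 were not analysed here. Only RFXANK, a subunit of the RFX factor that binds MHC promoters, passed, with higher signals in the miR-331-3p arrays. No gene passed in the other direction, and the list median was 0.053. Over all probes tested, 4.30% were higher and 7.96% passed in either direction. With 1 gene, the count is too small to read against that background. RFXANK had 10.30, 10.20 and 10.49 in the miR-331-3p arrays, against 9.85, 10.04 and 9.99 in the miR-NC arrays. Its difference was 0.37 (standard error 0.091, adjusted p = 0.030 by limma), with 0.19 and -0.03 at its other probes, neither of which passed. The call was lost with the methods' t-test (adjusted p = 0.20) and without a minimum signal (adjusted p = 0.053), and without any 1 array other than miR-331-3p replicate B or C, at an adjusted p of up to 0.11.

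The genes that neighbour the TAP genes in the MHC were at the bottom of the range. PSMB9, an interferon-inducible catalytic subunit of the immunoproteasome that lies next to TAP1, had no probe at the minimum, with means of 6.80 and 6.87 and differences of 0.01 and 0.12. PSMB8, another such subunit, which lies between TAP2 and TAP1, likewise had its 4 probes at means from 6.76 to 6.92, none of them tested. PSMB10, the third inducible subunit, whose gene lies elsewhere, was bright, with a difference of 0.18 (interval -0.03 to 0.39, adjusted p = 0.29). PSME1 and PSME2, subunits of the proteasome activator, differed by 0.27 and 0.24 (adjusted p = 0.070 and 0.18 by limma). PSMB7, another proteasome subunit, had the opposite sign, -0.24 (interval -0.46 to -0.02, adjusted p = 0.19 by limma). PSMB5 and PSMB6 differed by 0.03 and -0.01.

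NLRC5, IRF1 and JAK1, which act upstream of class I genes, were near or under the minimum, and none passed. NLRC5, the transactivator of class I genes, was not tested, at 6.95, 6.82 and 6.95 in the miR-331-3p arrays and 6.90, 6.92 and 6.97 in the miR-NC arrays. IRF1, a transcription factor induced by interferon, had 7.31, 7.19 and 7.24 in the miR-331-3p arrays and 7.27, 7.36 and 7.25 in the miR-NC arrays, a difference of -0.05 (interval -0.21 to 0.12, adjusted p = 0.78). JAK1, a kinase of interferon receptors that LNCaP is known to express poorly, had 7.04, 7.08 and 6.75 in the miR-331-3p arrays and 7.04, 7.10 and 7.07 in the miR-NC arrays, a difference of -0.11 (interval -0.31 to 0.10, adjusted p = 0.56). HLA-H, a class I pseudogene close in sequence to the heavy chains, had a difference of 0.21 (interval 0.02 to 0.40, adjusted p = 0.18), of the size seen at HLA-B.

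Some markers of the line itself also differed between the groups. The summed log2 signal of the 7 prostate markers ran from 72.84 to 73.21 in the miR-331-3p arrays and from 71.73 to 71.92 in the miR-NC arrays, and TMPRSS2 and KLK2 were higher, by 0.53 and 0.33 (adjusted p = 0.0023 and 0.015 by limma). The KLK2 call was lost without miR-NC replicate A or B, at an adjusted p of up to 0.067. The other 5 did not pass: KLK3 had the opposite sign, -0.23 (interval -0.43 to -0.03, adjusted p = 0.16), and KRT8, FOLH1, KRT18 and HOXB13 had 0.34, 0.23, 0.04 and 0.01 at their brightest probes. For 5 leukocyte markers, 3 of them under the minimum, the sums ran from 35.46 to 35.66 in the miR-331-3p arrays and from 35.51 to 35.89 in the miR-NC arrays. For 8 genes of class II presentation, 5 under the minimum, the sums ran from 59.03 to 59.26 in the miR-331-3p arrays and from 58.80 to 59.08 in the miR-NC arrays. For 4 fibroblast markers, 3 under the minimum, they ran from 27.61 to 27.77 in the miR-331-3p arrays and from 27.71 to 27.80 in the miR-NC arrays. For 3 endothelial markers, 1 under the minimum, the groups did not overlap, with 22.14 to 22.25 in the miR-331-3p arrays and 21.78 to 22.09 in the miR-NC arrays. Among these VWF had a difference of 0.19 (interval 0.01 to 0.38, adjusted p = 0.20) and PECAM1 of -0.05. The part of these markers in the TAP1 result was not tested.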

How the data were processed

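The table the authors deposited holds log2 values of 48802 probes on 6 arrays. Per the methods, the authors corrected raw bead signals for background, brought them to the log2 scale with variance stabilization in lumi and applied quantile normalization in Partek Genomics Suite. The values run from 6.52 to 13.94, and compression of low signals can understate the fold of dim probes. The number of arrays limits the precision. The raw signal table was set aside, since nothing in the names of its 12 columns says which sample each one is. Depth per array is therefore given only as signal.

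Gene names are those of the platform annotation: 27577 probes had 1 symbol, of which 27540 were brought up to date through the gene identifier, 13 had several and 21212 are unnamed here. Promoter and microRNA sequences are from RefSeq (GRCh38.p14), which had windows for 8 of the 9 members.

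limma 3.58.1 (lmFit and eBayes, no block, R 4.3.3) tested, two-sided, the 16752 probes whose 6-array mean reached 7, and p-values were adjusted over all of these by Benjamini-Hochberg at a threshold of 0.05. Members, lists, the minimum and the alternatives were chosen with earlier results of these data known. Named genes were all member probes, up to 6 genes each way of each list past the threshold, a few fixed pathway genes, RRBP1, RALA and ERBB2 for direction, and the 3 genes most like B2M; any other gene named was chosen after its values were seen. Alternatives were the minimum, the methods' t-test, array weights, an intensity trend, cyclic loess, a replicate block and leaving out each array. Python 3.11.15, pandas 2.3.3 and matplotlib 3.10.9 were used for summaries and figures.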

Additional observations from a re-analysis of the deposited data

How the results depend on the processing

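TAP1 kept its direction under every alternative run. A changed minimum, the t-test, the intensity trend and the replicate block leave a difference of means as it was. Direction could therefore turn only with array weights, cyclic loess or an array left out. The TAP1 call was lost with the methods' t-test (0.42, adjusted p = 0.20). Without each array in turn the TAP1 difference ran from 0.35 to 0.50 with adjusted p from 0.030 to 0.093 by limma. The count of member probes higher was 0 with that t-test and 0 to 1 with each array left out: 0 without miR-NC replicate C, and without miR-NC replicate A the 1 was TAPBP. Over all probes the t-test gave 115 higher and 49 lower, against 720 and 613 by limma, and leaving out each array gave 363 to 765 higher and 263 to 697 lower, with counts down by over 1.5 times without miR-331-3p replicate B or any 1 miR-NC array. Of the interferon-stimulated genes 3 were higher with the t-test, and 1, DTX3L, was lower without a minimum, with array weights and with an intensity trend. Of the other class I pathway genes, 4 were higher and 2 lower with array weights, and leaving out each array gave 0 to 2 higher and 0 to 1 lower. The letters A, B and C are not said to pair the arrays, and same-letter arrays deviated from their group means with correlations of -0.04, 0.02 and 0.22. With the replicate block 742 probes were higher and 670 lower, TAP1 had adjusted p = 0.022, and 2 class I pathway genes were higher and 1 lower. The difference of the dimmer TAP2 probe was 0.009 with array weights. Without each array in turn it ran from -0.153 to 0.025, that of HLA-E from -0.033 to 0.05, that of the dimmer B2M probe from -0.01 to 0.12 and that of ERAP1 from -0.039 to 0.043. Of 150 values of the 12 probes under alternatives, 139 kept direction and call, a count that includes the settings that cannot change a difference. The median of all probes moved by less than 0.1 in each fit. The causes were not tested. Signals near 7, as at HLA-E and ERAP1, limit what can be read there.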

Other observations

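MR1, a class I-like molecule that presents microbial riboflavin metabolites, was singled out after its values were seen. It had 7.81, 7.84 and 7.87 in the miR-331-3p arrays, against 7.59, 7.57 and 7.63 in the miR-NC arrays. The difference of 0.24 missed the threshold by limma (adjusted p = 0.055) and passed by the methods' t-test (adjusted p = 0.048) and without a minimum signal (adjusted p = 0.022). With each array left out, adjusted p by limma was 0.086 to 0.17.

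NFYA, a subunit of the CCAAT-binding factor of class I promoters, was likewise singled out. It had 7.63, 7.78 and 7.51 in the miR-331-3p arrays, against 7.80, 8.12 and 8.06 in the miR-NC arrays, a difference of -0.35 (adjusted p = 0.058 by limma, and 0.034 to 0.22 with each array left out). The subunits of the factor differed in sign. NFYC had 9.036, 9.248 and 9.302 in the miR-331-3p arrays, against 8.805, 8.840 and 8.999 in the miR-NC arrays, a difference of 0.31 (adjusted p = 0.059 by limma, and 0.027 to 0.19 with each array left out). NFYB had a difference of -0.11 (adjusted p = 0.44).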
